A study of Mus musculus with 9 samples.

Results

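Coagulation and platelet genes were examined in retinas of mice with retinal vein occlusion (RVO). The set was given by name and held 10 of the 48679 names in the count table: F3, Thbd, Tfpi, Procr, Pros1, Vwf, Thbs1, F13a1, Pf4 and Ppbp. All 10 had counts and were tested in each comparison. Retinas of C57BL/6J mice 12 weeks old were sequenced, with 6 retinas pooled per sample and 3 samples per group, so n counts pools and not mice. In RVO eyes, all large veins were closed by laser (50 mW, spots of 50 µm) after injection of the photosensitizer eosin Y at 200 mg/kg. The fellow eyes of these mice received as many laser spots between the large vessels and are called control laser-treated eyes. Both were taken at d2, whereas untreated eyes had no laser treatment. The paper reports that some of the treated veins opened again within days, so RVO pools may hold retinas with reopened veins.

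Clotting starts when tissue factor, the product of F3, meets factor VII of the plasma, and tissue factor pathway inhibitor (Tfpi) blocks this step. Thrombin that binds thrombomodulin (Thbd) activates protein C, which is held by its receptor (Procr) and assisted by protein S (Pros1). Von Willebrand factor (Vwf) tethers platelets to the vessel wall, thrombospondin 1 (Thbs1) is released by platelets and by many tissue cells, factor XIII subunit A (F13a1) crosslinks fibrin, and Pf4 and Ppbp encode chemokines stored in platelet granules. Eosin Y and laser light are used to form a thrombus in the vein, and RNA measures neither the clot nor the activity of these proteins.

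Total counts per sample were between 21022997 and 28993921 in RVO eyes, 18897218 and 23419497 in control eyes and 12377572 and 15245869 in untreated eyes. Levels are given as CPM, counts per 1e6 counts of a library scaled by edgeR's TMM method. The 8 photoreceptor markers, which define the retina, summed to between 42019 and 46180 CPM in RVO eyes, 52346 and 64267 CPM in control eyes and 81701 and 83624 CPM in untreated eyes, and all 8 fell between RVO and untreated eyes (edgeR's adjusted p under 0.01). The part of this fall in the levels of the members was not tested. RVO replicate 2 stood apart from the other RVO pools. Its lens markers summed to 5951 CPM, against 186 and 520 CPM in the others, and for 8 members it was the RVO pool nearest to the control eyes. Control replicate 1 also had more lens marker counts, with 3054 CPM against 401 and 218 CPM. Fewer cells of a type and less RNA per cell cannot be told apart in whole retinas.

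Nearly all members were higher in laser-treated than in untreated eyes. Between RVO and untreated eyes, 9 of 10 rose and 0 fell, and between control and untreated eyes 9 rose and 0 fell at an adjusted p under 0.01. Adjusted p-values are those of edgeR's quasi-likelihood test after Benjamini-Hochberg correction over all genes, and a log2 fold change is followed by ± its standard error. Over all genes tested, 27.4% rose and 24.6% fell in the first comparison and 27.2% rose and 25.2% fell in the second, so that 52.1% and 52.4% changed in all. The exception among the members was Tfpi in both. Procr, Pf4, Ppbp and F13a1 had at most 4 counts in each untreated pool. They passed the filter on low counts only through the laser-treated eyes, so for them only a rise against untreated eyes could be called. Their part in the counts, overlaps and medians against untreated eyes given here is therefore no result. Between RVO and control eyes, F3, Procr, Thbs1, F13a1 and Pf4 rose and 0 members fell, where 3.34% of all genes changed, 2.7% upwards and 0.634% downwards. At an adjusted p under 0.05 in the same edgeR test, Thbd and Ppbp were also higher and Vwf was lower, where 17.5% of all genes were higher and 17.1% lower (34.6% in all). Pools of the compared groups did not overlap for 9 members between RVO and untreated eyes and 8 between control and untreated eyes, all higher after laser treatment, where 35.9% and 34.5% of all genes were higher without overlap. Comparing RVO with control eyes, 7 members were higher and 1 was lower without overlap, against 26.7% and 25.8% of all genes. The median log2 fold change of the members was 2.52, 2.21 and 1.39 in the 3 comparisons, against 0.01, 0.01 and 0.02 for all genes tested. The members and the lists used below were chosen with earlier results of these data known. Their shares and medians beside those of all genes are therefore a description only. The comparisons share samples with each other and are no independent evidence.

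The calls between RVO and control eyes rested on the pools. Without RVO replicate 2, 8 members passed the threshold of 0.01, where 36.4% of all genes passed. Without any other single pool, 0 members passed. At an unadjusted p under 0.05 in the same edgeR test there were then 8 or 9 members, against 35.4% to 40% of all genes. At an adjusted p under 0.05, 7 members passed without RVO replicate 1 (20.6% of all genes) and 4 without RVO replicate 3 (2.48%). Without control replicates 1, 2 and 3 these were 5, 6 and 1 members, against 3.57%, 18.9% and 0.361% of all genes (edgeR).

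**Figure D1:**
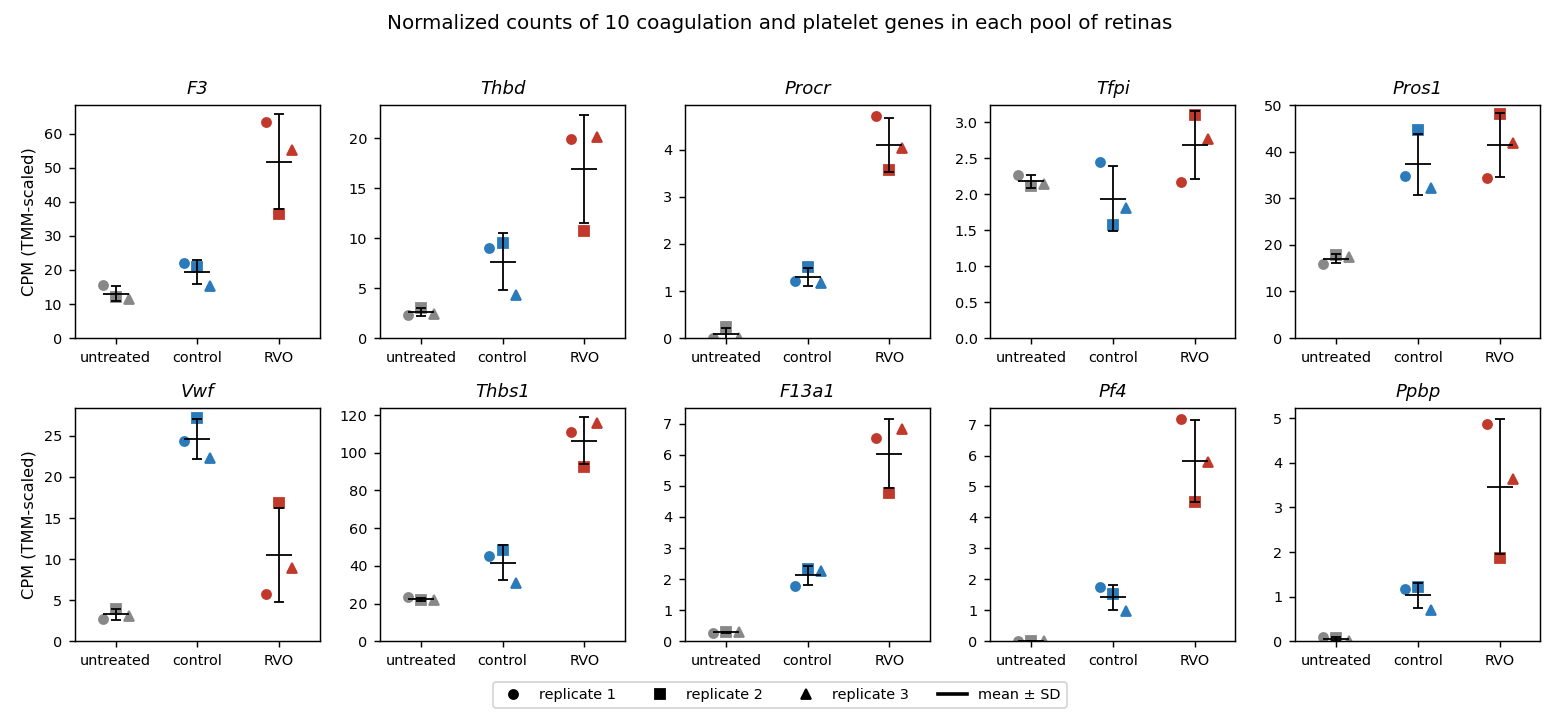
TMM-scaled CPM of the 10 genes (vertical axes, each from 0) in every pool of untreated, control laser-treated and RVO eyes, with 1 symbol per replicate number and bars for mean ± SD (n = 3). Vwf alone had its highest pools in control eyes, whereas RVO pools were the highest for F3, Thbd, Procr, Thbs1, F13a1, Pf4 and Ppbp.

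**Figure D2:**
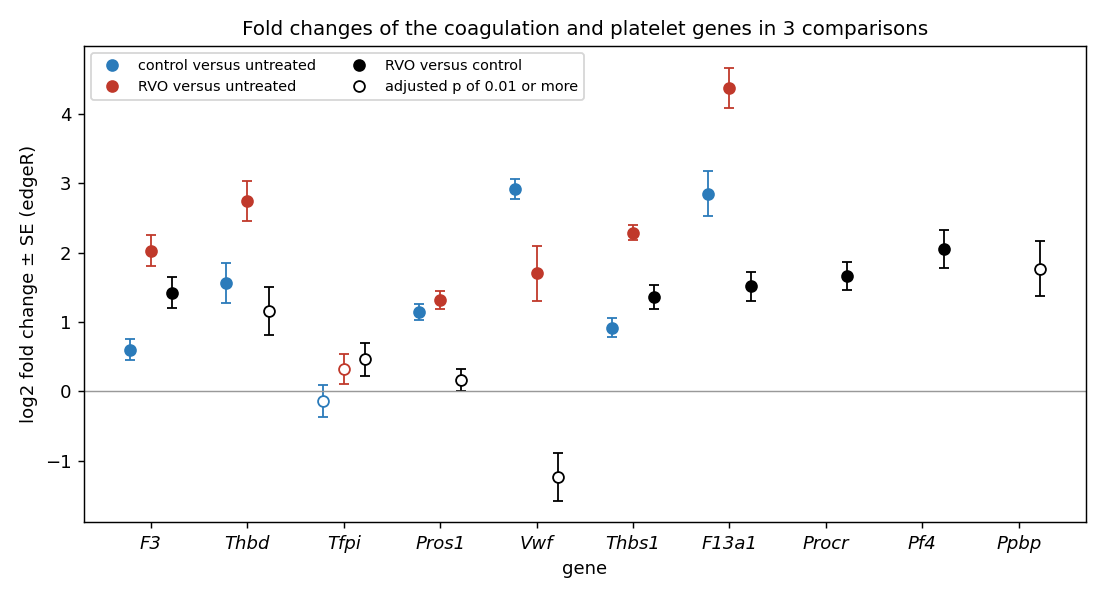
Log2 fold changes with their standard errors from edgeR for each gene in the 3 comparisons, where filled points had an adjusted p under 0.01. Points against untreated eyes are not drawn for Procr, Pf4 and Ppbp, which had at most 3 counts in each untreated pool, and the point of Vwf between RVO and control eyes lies below 0, at -1.24.

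The upstream sequences of F3, Procr and Ppbp are shown because these genes had higher levels in RVO than in control eyes and hold the letters TGANTCA. This is a looser form of the core bound by AP-1 factors, which has C or G at N. RefSeq promoters of build GRCm38.p6 were found for 7 of the 10 genes, and TGANTCA (the same motif on both strands, N being any base) occurred in those of 3 genes. Windows of 300 bases around the start of all annotated genes held it in 7.81% of cases and held 2 or more matches in 0.46%. Procr is printed only up to the start of its GENCODE gene, which lies 100 bases before its RefSeq start. Matches are in capitals, on the plus strand. F3 holds TGAGTCA beside TGAATCA and Procr holds TGACTCA, whereas the match of Ppbp is TGAATCA, without C or G at N. The shares over all genes are for the looser form and were not counted for the core.
F3, chr3:121723287-121723536: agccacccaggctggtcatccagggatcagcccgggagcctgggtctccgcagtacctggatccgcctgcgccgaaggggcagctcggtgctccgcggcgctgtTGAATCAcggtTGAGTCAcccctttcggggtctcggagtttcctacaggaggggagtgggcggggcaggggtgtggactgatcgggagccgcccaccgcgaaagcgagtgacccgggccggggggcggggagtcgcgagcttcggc
Procr, chr2:155750967-155751116: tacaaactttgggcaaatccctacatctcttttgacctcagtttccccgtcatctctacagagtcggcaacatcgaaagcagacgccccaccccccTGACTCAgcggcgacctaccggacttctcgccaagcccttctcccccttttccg
Ppbp, chr5:90768268-90768517: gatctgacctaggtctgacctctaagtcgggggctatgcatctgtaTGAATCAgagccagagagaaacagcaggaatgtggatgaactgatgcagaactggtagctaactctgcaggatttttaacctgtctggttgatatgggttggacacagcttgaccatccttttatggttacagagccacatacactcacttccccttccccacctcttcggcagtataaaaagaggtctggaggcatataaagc
The matches of F3 began 146 and 135 bases before its RefSeq start, that of Procr 154 bases and that of Ppbp 204 bases before it. A match describes the letters and not the binding of a factor, which was not measured. The motif was among 8 chosen after the sequences and the levels had been seen. The promoters of Tfpi, Pros1, F13a1 and Pf4 in the table did not hold these letters.

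F3 encodes tissue factor, the receptor that starts clotting outside the vessel. Its gene lies at chr3:121723537-121735048 of GRCm38, on the plus strand, with 7 exons. F3 had 63.6, 36.5 and 55.4 CPM in RVO eyes, 22.0, 20.8 and 15.3 CPM in control eyes and 15.6, 12.0 and 11.5 CPM in untreated eyes. Every RVO pool lay above every other pool, whereas the lowest control pool lay just below the highest untreated pool. F3 rose 4.09-fold from untreated to RVO eyes (log2 fold change 2.03 ± 0.22, adjusted p = 0.000124 by edgeR) and 2.68-fold from control to RVO eyes (log2 fold change 1.42 ± 0.22, adjusted p = 0.00989 by edgeR). The latter was just below the threshold and was 0.0106 with size factors of the RLE method. The rise from untreated to control eyes was 1.51-fold (log2 fold change 0.60 ± 0.15, adjusted p = 0.00354 by edgeR). It was not called when all 9 samples were fitted together (adjusted p = 0.0478, edgeR), nor without control replicate 1 or 2 or untreated replicate 2 or 3 (adjusted p between 0.0111 and 0.0264, edgeR).

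Tfpi, the inhibitor of the tissue factor complex, did not pass the threshold in any of the comparisons. The gene is on the minus strand at chr2:84432855-84476775. It had 2.17, 3.10 and 2.77 CPM in RVO eyes, 2.44, 1.57 and 1.80 CPM in control eyes and 2.27, 2.11 and 2.14 CPM in untreated eyes. The groups overlapped throughout. The log2 fold change was 0.33 between RVO and untreated eyes (95% interval -0.17 to 0.82, edgeR's adjusted p = 0.209) and 0.46 between RVO and control eyes (-0.09 to 1.01, adjusted p = 0.161 in the same edgeR test). Between control and untreated eyes it was -0.14 (-0.64 to 0.36, edgeR's adjusted p = 0.603) and 0.029 when libraries were scaled by size only. A rise of Tfpi from control to RVO eyes of up to 2.01-fold thus lay within the interval.

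The balance of initiator and inhibitor was read as the ratio of F3 to Tfpi counts, which does not depend on library scaling. It was 29.4, 11.8 and 20.0 in RVO eyes, 9.02, 13.3 and 8.51 in control eyes and 6.88, 5.67 and 5.37 in untreated eyes. Pools of both laser-treated groups lay above all untreated pools, and RVO replicate 2 lay within the control range. Folds of ratios, here and below, are differences of mean log2 ratios turned back to folds. In RVO eyes the ratio of F3 to Tfpi was 3.23 times that of untreated eyes (two-sided exact permutation p = 0.1). It was 1.90 times that of control eyes (exact permutation p = 0.2). A p of 0.1 is the lowest that the exact permutation test can give with 3 against 3 pools. Over the 27 ratio tests made, the smallest Benjamini-Hochberg adjusted value of the exact permutation tests was 0.129. This test could not reach 0.05 for any ratio with 3 pools per group.

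The genes of the protein C pathway differed from each other. Thbd, which turns thrombin from a clotting into an anticoagulant enzyme, is a gene of 1 exon on the minus strand at chr2:148404466-148408188. It had 19.9, 10.7 and 20.2 CPM in RVO eyes, 9.04, 9.50 and 4.35 CPM in control eyes and 2.27, 3.05 and 2.43 CPM in untreated eyes. The groups did not overlap, but the lowest RVO pool, replicate 2, was close to the highest control pool. Thbd rose 6.70-fold in RVO eyes (log2 fold change 2.74 ± 0.29, adjusted p = 0.000106 by edgeR) and 2.96-fold in control eyes (log2 fold change 1.57 ± 0.29, adjusted p = 0.000384 by edgeR) against untreated eyes. Between RVO and control eyes the log2 fold change was 1.16 and missed the threshold (SE 0.34, adjusted p = 0.0362 by edgeR). Without RVO replicate 2 it was 1.39 (adjusted p = 0.00152 in the same edgeR test).

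Procr, the endothelial receptor that presents protein C to thrombomodulin, lies on the plus strand at chr2:155751117-155755471 and was nearly undetected in untreated eyes. These pools had 0, 3 and 0 counts. RVO eyes had 4.71, 3.57 and 4.05 CPM and control eyes 1.22, 1.52 and 1.17 CPM. The groups did not overlap. In scaled counts RVO eyes had 52.6 times the untreated level (95% counting interval 17.8 to 256) and control eyes 16.3 times (5.39 to 80.5), and these intervals cover counting error only. Both rises were called (edgeR's adjusted p = 9.52e-05 and 0.000109). From control to RVO eyes Procr rose 3.17-fold (log2 fold change 1.67 ± 0.20, adjusted p = 0.00723 by edgeR).

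Pros1 encodes protein S, the cofactor of activated protein C and of Tfpi, and lies on the plus strand at chr16:62854307-62929346. It had 34.4, 48.2 and 41.9 CPM in RVO eyes, 34.8, 44.7 and 32.3 CPM in control eyes and 15.9, 17.7 and 17.4 CPM in untreated eyes. Every laser-treated pool was above the untreated pools, and the laser-treated groups overlapped. Pros1 rose 2.49-fold in RVO eyes (log2 fold change 1.31 ± 0.13, adjusted p = 8.48e-05 by edgeR) and 2.21-fold in control eyes (log2 fold change 1.14 ± 0.12, adjusted p = 4.47e-06 by edgeR). No difference between RVO and control eyes was detected, with a 95% interval of the fold from 0.864 to 1.44 (edgeR's adjusted p = 0.465). The mean levels were 41.5 ± 6.89 CPM after RVO and 37.3 ± 6.57 CPM after control treatment (SD, n = 3).

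Vwf, which endothelial cells store in Weibel-Palade bodies, was the member with its highest level in control laser-treated eyes. The gene spans chr6:125546774-125686679 on the plus strand and has 56 exons. It had 24.4, 27.1 and 22.3 CPM after control treatment, 5.70, 16.9 and 8.93 CPM in RVO eyes and 2.72, 3.99 and 3.07 CPM in untreated eyes. The 3 groups did not overlap, and RVO replicate 2 was the RVO pool nearest to the control eyes. Vwf rose 7.58-fold in control eyes (log2 fold change 2.92 ± 0.14, adjusted p = 2.09e-08 by edgeR) and 3.26-fold in RVO eyes (log2 fold change 1.70 ± 0.40, adjusted p = 0.00553 by edgeR) against untreated eyes. The rise in RVO eyes was not called without RVO replicate 3 or without any 1 of the untreated pools, with an adjusted p of at most 0.0291 (edgeR). Between RVO and control eyes the level was 2.35-fold lower in RVO eyes and missed the threshold (log2 fold change -1.24 ± 0.34, adjusted p = 0.0295 by edgeR). This difference was -1.78 without RVO replicate 2 (adjusted p = 4.5e-05, edgeR), and DESeq2's Wald test on all 6 pools gave an adjusted p of 0.000979.

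The 11 endothelial marker genes differed in direction among themselves between RVO and control eyes. Kdr and Flt1, which encode receptors of vascular endothelial growth factor, made up 75.0% to 83.8% of their summed counts. The summed level was 250, 390 and 307 CPM in RVO eyes, 435, 483 and 449 CPM in control eyes and between 267 and 276 CPM in untreated eyes. Of these markers, 8 rose and 0 fell between control and untreated eyes, 4 rose and 0 fell between RVO and untreated eyes, and 0 passed between RVO and control eyes, where 1 was higher and 5 were lower at an adjusted p under 0.05 (edgeR). Kdr, Tek, Tie1, Esam and Cldn5 were the lower ones and Egfl7 the higher one. Pecam1 and Cdh5, used as other denominators below, had log2 fold changes of 0.07 and 0.08 between RVO and control eyes (edgeR's adjusted p = 0.64 and 0.593). All 11 were detected in each group. Their part in the levels of Vwf, Tfpi, Thbd and Procr was not tested, and levels relative to this sum and to other denominators are given instead. The other denominators were chosen after seeing the data.

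Per 100 counts of the endothelial markers, Vwf had 5.60, 5.61 and 4.96 counts in control eyes, 2.28, 4.33 and 2.91 in RVO eyes and 1.02, 1.45 and 1.13 in untreated eyes. The order of the groups by this sum was the same as for the level itself, without overlap. Relative Vwf in control eyes was 4.48 times that of untreated eyes and 0.570 times as high in RVO as in control eyes (two-sided exact permutation test, p = 0.1 each). Control pools were also above the RVO and untreated pools relative to the sum without Kdr and Flt1, to Pecam1 and to Cdh5, with 0.513, 0.369 and 0.368 times as much Vwf in RVO as in control eyes. RVO and untreated pools overlapped relative to Pecam1 and to Cdh5. Tfpi per 100 endothelial counts was 0.561, 0.324 and 0.401 in control eyes, and between 0.766 and 0.903 in all RVO and untreated pools. By this sum Tfpi was 2.03 times as high in RVO as in control eyes (exact permutation p = 0.1) and overlapped between RVO and untreated eyes. Without Kdr and Flt1 in the sum it was 1.83 times, and relative to Pecam1 or Cdh5 1.32 or 1.31 times as high with overlapping groups (exact permutation p = 0.3 and 0.2), so the difference of Tfpi between RVO and control eyes depended on the denominator. RVO pools were below untreated pools relative to the sum without Kdr and Flt1 and to Cdh5, without overlap, and overlapped with them relative to Pecam1.

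Relative to all 11 markers, Thbd was 3.31-fold and Procr 4.57-fold higher after RVO than after control treatment. These folds were 2.98 and 4.12 without Kdr and Flt1, and 2.15 and 2.96 relative to Pecam1. Relative to Cdh5 they were 2.14 and 2.95. RVO and control pools did not overlap in any of these ratios of Thbd and Procr (exact permutation p = 0.1 each).

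**Figure D3:**
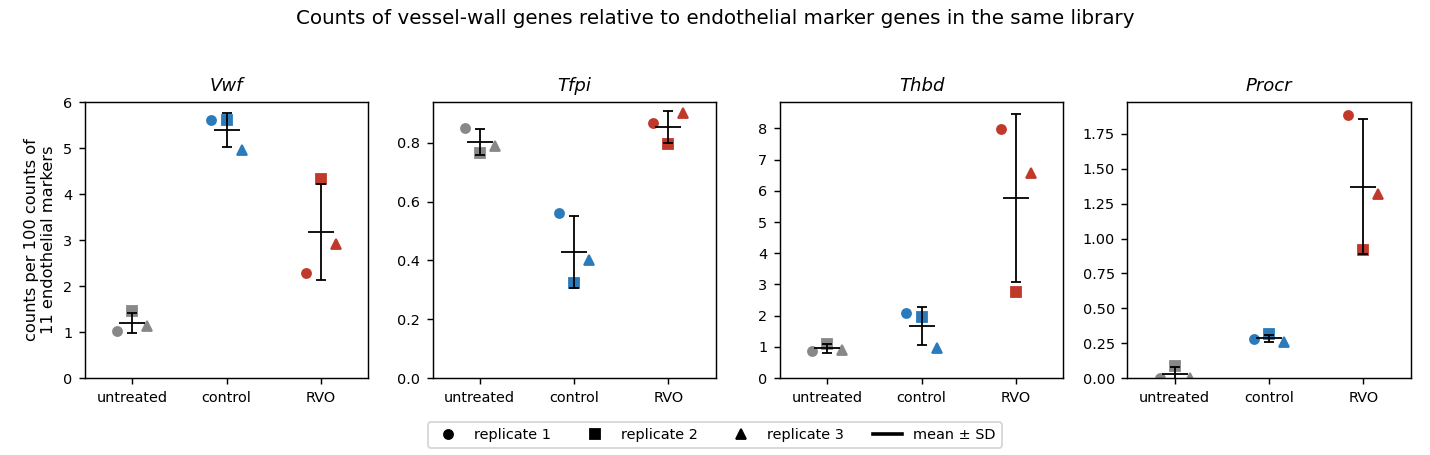
Counts of Vwf, Tfpi, Thbd and Procr per 100 counts of 11 endothelial markers in the same library (vertical axes, each from 0), with 1 symbol per replicate number and bars for mean ± SD (n = 3). Relative to this sum, of which Kdr and Flt1 made up 75.0% to 83.8%, Vwf was highest in the control pools, between 4.96 and 5.61, Tfpi was lowest there, and Thbd and Procr were highest in the RVO pools.

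Thbs1 was the member with the most counts in RVO eyes and rose in all 3 comparisons. It encodes a large matrix protein of platelet granules that also restrains vessel growth, and lies on the plus strand at chr2:118111876-118127133. It had 111, 92.4 and 116 CPM in RVO eyes, 45.4, 48.4 and 31.0 CPM in control eyes and 23.3, 21.7 and 21.7 CPM in untreated eyes. The groups did not overlap, and each step was a rise. Thbs1 rose 4.89-fold in RVO eyes (log2 fold change 2.29 ± 0.11, adjusted p = 3.44e-06 by edgeR) and 1.89-fold in control eyes (log2 fold change 0.92 ± 0.14, adjusted p = 9.17e-05 by edgeR) against untreated eyes. From control to RVO eyes it rose 2.57-fold (log2 fold change 1.36 ± 0.17, adjusted p = 0.00794 by edgeR). A lincRNA on the opposite strand, Gm29233, shares 208 exon bases with Thbs1 (3.43% of its exon length). The use of strand in counting is not given in the sources used here.

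F13a1, the catalytic subunit of the enzyme that crosslinks fibrin, is also made by macrophages. It lies on the minus strand at chr13:36867178-37050244, where the antisense gene Gm30489 shares 74 exon bases with it (1.10% of its exon length). It had 6.53, 4.76 and 6.82 CPM in RVO eyes, 1.76, 2.32 and 2.26 CPM in control eyes and 0.272, 0.313 and 0.286 CPM in untreated eyes, where the pools held 3, 4 and 4 counts. The groups did not overlap. F13a1 rose 20.8-fold in RVO eyes (log2 fold change 4.38 ± 0.29, adjusted p = 1.58e-05 by edgeR) and 7.21-fold in control eyes (log2 fold change 2.85 ± 0.33, adjusted p = 8.13e-06 by edgeR) against untreated eyes. From control to RVO eyes it rose 2.86-fold (log2 fold change 1.52 ± 0.21, adjusted p = 0.0086 by edgeR).

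The 10 monocyte and macrophage markers, taken as a sum, had the same order of groups as F13a1. They summed to between 127 and 158 CPM in RVO eyes, 55.7 and 78.1 CPM in control eyes and 17.4 and 22.1 CPM in untreated eyes, with 2 of them at 0 in the last. Of these, 9 of 10 rose in RVO against untreated eyes and 2 of 10 rose in RVO against control eyes (edgeR's adjusted p under 0.01). For the 2 markers at 0 in untreated eyes only a rise could be called against them. Per 100 counts of these markers, F13a1 had 4.64, 3.74 and 4.30 counts in RVO eyes, 2.91, 2.98 and 4.06 in control eyes and 1.39, 1.79 and 1.29 in untreated eyes. The relative level in RVO eyes was 1.28 times that of control eyes with overlapping groups (exact permutation p = 0.2), and 2.52 times that of untreated eyes (exact permutation p = 0.1). The 8 markers of perivascular and border macrophages did not have this order. They summed to between 17.0 and 24.6 CPM in RVO eyes and 21.8 and 22.6 CPM in control eyes. In untreated eyes their sum was between 15.9 and 18.4 CPM. The part of either kind of cell in the level of F13a1 was not tested.

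The platelet chemokine genes Pf4 and Ppbp are neighbours on the plus strand of chromosome 5, at chr5:90772435-90773383 and chr5:90768518-90770063, with 2371 bases between them. Pf4 (platelet factor 4, which binds heparin) had 7.17, 4.50 and 5.80 CPM in RVO eyes and 1.76, 1.52 and 0.962 CPM in control eyes. It had 0 counts in all 3 untreated pools. Against a floor of 3 counts in each untreated library, Pf4 was at least 24.2-fold higher in RVO eyes and at least 5.88-fold higher in control eyes (edgeR's adjusted p = 7.3e-05 and 3.21e-05). From control to RVO eyes it rose 4.15-fold, the largest fold of the 10 members in that comparison (log2 fold change 2.05 ± 0.28, adjusted p = 0.00857 by edgeR).

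Ppbp, whose protein is cut to a chemokine that draws neutrophils, had 4.87, 1.87 and 3.65 CPM in RVO eyes and 1.18, 1.21 and 0.711 CPM in control eyes. Untreated pools had 1, 1 and 0 counts. The groups did not overlap, and RVO replicate 2 was again the lowest RVO pool. In scaled counts, the level in RVO eyes was 68.1 times the untreated level (95% counting interval 18.7 to 565) and that in control eyes 19.2 times (5.12 to 162), and both rises were called (edgeR's adjusted p = 0.000207 and 9.49e-05). Between RVO and control eyes the log2 fold change was 1.77 and missed the threshold (SE 0.40, adjusted p = 0.0166 by edgeR). It was 2.05 without RVO replicate 2 (adjusted p = 0.000204, edgeR).

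Other platelet genes differed in direction among themselves between RVO and control eyes. The sum of the 15 markers of platelets and megakaryocytes was between 29.8 and 31.2 CPM in RVO eyes, 28.5 and 32.4 CPM in control eyes and 15.7 and 17.9 CPM in untreated eyes. Of these, 9 had at most 10 counts in every sample, among them the platelet receptor genes Gp6 and Gp9 and the platelet tubulin gene Tubb1, and Gp6 was at 0 in all pools but 1. Between RVO and untreated eyes 3 of 5 tested markers rose, and between RVO and control eyes 0 of 6 passed (edgeR's adjusted p under 0.01), with 1 higher and 1 lower at 0.05. Without overlap, 3 of the 6 were higher in RVO eyes, against 26.7% of all genes, and 1 was lower, against 25.8%. The higher ones were Itga2b, Itgb3 and Nbeal2, and the lower one was Gp1bb, with between 2.58 and 5.39 CPM in RVO eyes and between 7.28 and 9.25 CPM in control eyes. Itga2b, the integrin chain of the platelet fibrinogen receptor, had between 7.09 and 7.39 CPM in RVO eyes, 5.38 and 6.92 CPM in control eyes and 1.54 and 1.88 CPM in untreated eyes. Its log2 fold change was 2.06 from untreated to RVO eyes (edgeR's adjusted p = 3.9e-05) and 0.27 from control to RVO eyes (adjusted p = 0.177, edgeR).

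Summed markers of other blood cells had their highest values in RVO eyes, as did the chemokines. Neutrophil markers summed to between 48.3 and 108 CPM in RVO eyes, 9.41 and 25.4 CPM in control eyes and 0.625 and 1.71 CPM in untreated eyes, with 4 of 10 at 0 in untreated eyes. Erythroid markers summed to between 49.7 and 197 CPM, 28.6 and 31.2 CPM, and 14.6 and 15.2 CPM in these groups. Of the tested markers, 0 of 6 neutrophil and 0 of 5 erythroid ones passed the threshold of 0.01 between RVO and control eyes (edgeR), and 6 and 3 of them were higher at 0.05. Replicate 2 was the RVO pool with the lowest of both sums, as for Pf4 and Ppbp. Per 100 counts of the monocyte and macrophage markers, Pf4 had 5.10, 3.54 and 3.66 counts in RVO eyes and 2.91, 1.94 and 1.73 in control eyes, a 1.87-fold difference without overlap (two-sided exact permutation test, p = 0.1). The part of any of these cells in the levels of Pf4 and Ppbp was not tested.

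**Figure D4:**
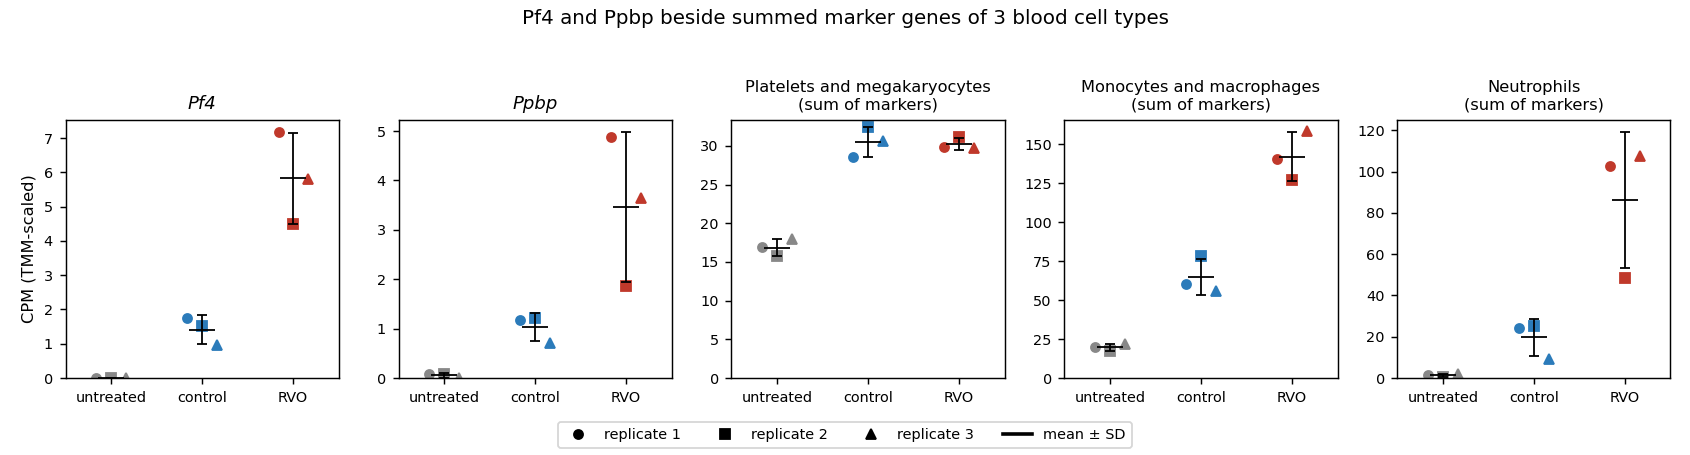
CPM of Pf4, of Ppbp and of the summed markers of platelets and megakaryocytes, monocytes and macrophages, and neutrophils in every pool (vertical axes, each from 0), with bars for mean ± SD (n = 3). The sum of the platelet markers, which combines markers that were higher and lower, overlapped between RVO and control eyes, at 29.8 to 31.2 and 28.5 to 32.4 CPM, whereas Pf4, Ppbp and the summed markers of the other blood cells had higher values in RVO eyes.

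The surrounding pathway was described with 10 lists of 65 further genes. Between RVO and untreated eyes 17 rose and 4 fell of 46 tested, between control and untreated eyes 15 rose and 4 fell of 42, and between RVO and control eyes 4 rose and 0 fell of 48 (edgeR's adjusted p under 0.01). The background shares of genes called were those given above, 52.1%, 52.4% and 3.34%. Some of the genes that rose against untreated eyes, such as Cxcr2, had 0 counts in all untreated pools, so for them only a rise could be called. The median log2 fold changes over all the lists were 0.35, 0.41 and 0.26. The genes that rose between RVO and control eyes were Anxa5, Axl, Tyro3 and Cd63.

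Most plasma coagulation factors are made in the liver, and 8 of the 14 listed here were too low to be tested between RVO and untreated eyes. Of the 6 tested, 2 rose, F10 and F7, and 1 fell, F8. F10 and F7 are outside the rule for named genes and were chosen after their values were seen. Both had at most 2 counts in each untreated pool and passed the filter on low counts only through RVO eyes. For them only a rise could be called. F10, the factor that tissue factor and factor VII activate, had 4.75, 2.25 and 4.27 CPM in RVO eyes, 0.724, 1.31 and 0.711 CPM in control eyes and 0, 0 and 1 counts in the untreated pools. F7 had between 1.19 and 1.49 CPM in RVO eyes, 0.354 and 0.962 CPM in control eyes and at most 2 counts in untreated pools. F8, the cofactor of factor IX, fell from 5.55 ± 1.01 CPM in untreated eyes to 2.82 ± 0.358 CPM in RVO eyes (SD, n = 3, log2 fold change -0.95, edgeR's adjusted p = 0.00353). Klkb1 and F11 had log2 fold changes of -0.25 and -0.38 in the same comparison and did not pass (edgeR).

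Among the other anticoagulant genes, 1 of 4 tested rose in RVO against untreated eyes. This was Anxa5, whose protein covers the phosphatidylserine on which clotting enzymes assemble, with 122 ± 9.38 CPM after RVO, 74.4 ± 1.84 CPM after control treatment and 55.4 ± 1.44 CPM without treatment (SD, n = 3). Its log2 fold change was 1.18 against untreated eyes (edgeR's adjusted p = 1.82e-05) and 0.72 against control eyes (adjusted p = 0.00601, edgeR). Serpine2 and Proz, which encode a thrombin inhibitor and the cofactor of a factor X inhibitor, had values of -0.43 and -0.29 against untreated eyes and did not pass. Of the thrombin and protease-activated receptors, F2rl1 rose (log2 fold change 1.37, edgeR's adjusted p = 0.00215), whereas F2r, the main thrombin receptor of the vessel wall, had -0.34 (adjusted p = 0.156, edgeR). In the vitamin K cycle, which prepares protein S for binding membranes, Ggcx rose with a log2 fold change of 0.64 (edgeR's adjusted p = 0.00205), and Vkorc1 and Nqo1 did not pass.

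Protein S also binds Tyro3 and Mertk of the TAM receptors, by which phagocytes and glia take up dying cells and membranes. Axl rose from 11.3 ± 1.17 CPM in untreated eyes to 52.1 ± 5.63 CPM after control treatment and 107 ± 21.7 CPM in RVO eyes (SD, n = 3), which was 9.63-fold against untreated eyes and 2.06-fold against control eyes (edgeR's adjusted p = 5.92e-06 and 0.00977). Tyro3 had 20.2 ± 1.88, 38.1 ± 2.81 and 59.9 ± 4.79 CPM in these groups and rose in each comparison, with a log2 fold change of 1.60 from untreated to RVO eyes and 0.66 from control to RVO eyes (edgeR's adjusted p = 1.32e-05 and 0.00824). Mertk did not pass in any comparison, with a log2 fold change of 0.42 between RVO and untreated eyes (adjusted p = 0.0218, edgeR). Gas6, the ligand of Axl and also of Tyro3 and Mertk, was lower in RVO eyes by a small amount, with 215 ± 6.73 against 260 ± 7.6 CPM in untreated eyes (log2 fold change -0.24, edgeR's adjusted p = 0.00823). Pros1 rose and Gas6 fell between RVO and untreated eyes, so the levels of the ligands moved in opposite directions.

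Of the thrombospondins and their receptors, Thbs2 and the receptor gene Cd47 rose between RVO and untreated eyes, with log2 fold changes of 1.53 and 0.71 (edgeR's adjusted p = 0.00165 and 5.6e-05). Thbs3 and Thbs4 had 0.14 and 0.29 and did not pass. Among factors by which the vessel wall restrains platelets, Nt5e, the ectoenzyme that forms adenosine, fell from 239.8 ± 5.86 CPM in untreated to 84.96 ± 1.26 CPM in RVO eyes (SD, n = 3, log2 fold change -1.47, edgeR's adjusted p = 2.51e-06). Ptgs2, the inducible cyclooxygenase, rose with a log2 fold change of 4.35 (edgeR's adjusted p = 0.000226), and Ptgs1 had 0.07 and Entpd1 -0.78 without passing. Nos3, the endothelial nitric oxide synthase, was chosen after its values were seen. It had 6.30 ± 1.18 CPM after RVO, 11.1 ± 0.867 CPM after control treatment and 6.36 ± 0.349 CPM without treatment (SD, n = 3), and like Vwf was highest in control eyes (log2 fold change 0.81 between control and untreated eyes, edgeR's adjusted p = 6.7e-05).

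Of the genes of Weibel-Palade bodies and platelet adhesion, Cd63, a membrane protein of these bodies and of lysosomes, rose 3.76 on the log2 scale from untreated to RVO eyes and 1.11 from control to RVO eyes (edgeR's adjusted p = 1.28e-06 and 0.00746). Rab27a and Angpt2 had 0.22 and -0.20 and did not pass. Cd63 thus differed from Vwf, which is stored in the same bodies, in that its highest pools were those of RVO eyes. The transglutaminases related to F13a1 were led by Tgm1 and Tgm2, with log2 fold changes of 3.77 and 3.02 between RVO and untreated eyes (edgeR's adjusted p = 2.22e-05 and 3.23e-06). Between RVO and control eyes these were 0.20 and 0.31 and did not pass, where F13a1 had 1.52. Tgm3 and Tgm5 had less than 1.5 CPM in every pool.

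Ppbp acts through the neutrophil receptor Cxcr2. Of the 6 genes for the receptors and relatives of these chemokines, 4 could be tested in RVO against untreated eyes. These were Cxcr2, Cxcl1, Cxcl2 and Cxcl3, with 0 counts in every untreated pool. They passed the filter on low counts only through RVO eyes, so only a rise could be called, and their calls are no result. In RVO against control eyes 0 of 5 passed. All 5 were higher at an adjusted p under 0.05, where 17.5% of all genes were higher (edgeR). Cxcr2, chosen after its values were seen, had 8.31, 4.59 and 8.49 CPM in RVO eyes, 1.99, 2.58 and 0.670 CPM in control eyes and 0 counts in untreated eyes. Cxcl5 had between 0.51 and 1.31 CPM in RVO eyes and at most 10 counts in any other pool. Cxcr3, named as a receptor of Pf4, had at most 3 counts in every pool.

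Levels of different genes can be compared only per length of transcript, as CPM per kilobase of merged exons. In untreated eyes the order was F3 with 5.15 ± 0.894, Pros1 with 4.16 ± 0.242 and Thbs1 with 3.67 ± 0.154, followed by Thbd with 0.694 ± 0.11 CPM per kilobase (SD, n = 3), and neighbours in this order did not overlap. All other members were below 0.5. In RVO eyes F3 led with 20.5 ± 5.51 and Thbs1 followed with 17.5 ± 2.03 CPM per kilobase, and these overlapped. Pros1 with 10.2 ± 1.68 and Pf4 with 8.08 ± 1.85 came next and also overlapped. Pf4 thus moved from the last place in untreated eyes to the fourth in RVO eyes. In control eyes the order was Pros1 with 9.12, F3 with 7.67 and Thbs1 with 6.85 CPM per kilobase. Pros1 overlapped with F3 and F3 with Thbs1, whereas Thbs1 lay above Thbd without overlap. Vwf was sixth in untreated and control eyes but ninth in RVO eyes, where it overlapped with F13a1 and Tfpi.

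Genes with the pattern most like each member over the 9 pools were sought among 16443 genes by Pearson's r of log2 CPM, as a description of pools that share groups and libraries. F3 was most like Mthfd1 and Arhgap22 (r = 0.993 each) and Thbs1 most like Ezr and Capn2 (0.997 and 0.996). Vwf was most like Atp9a and Cnp (0.993 and 0.986). Procr was most like Mgmt and Cmtm3 (0.997 and 0.994), and Pros1 most like Dcxr and Gldc (0.991 each). Thbd was most like Trmt61b and Cxcr2 (0.993 and 0.991) and F13a1 most like Tubb4b and Lmna (0.999 and 0.998). Pf4 was most like Piezo1 and Shb (0.997 each), and Ppbp most like Osgin1 and Ptgs2 (0.999 and 0.997). Tfpi had the weakest matches, Efnb2 and Slc6a13 (0.910 and 0.907).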

How the data were processed

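RNA of 9 pools of retinas was sequenced with a stranded mRNA kit. The authors mapped the reads with STAR 2.5.2b to GRCm38 with the Gencode vM11 annotation, counted them per gene with featureCounts (Subread 1.5.1) and deposited raw counts per sample. The handling of strand and of reads matching several genes is not given in the sources used here. The number of columns not used was 0. Samples were grouped by their labels.

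Tests were run with edgeR 4.0.16 in R 4.3.3. Each pair of groups was fitted alone, with filterByExpr, TMM scaling and the quasi-likelihood test, with Benjamini-Hochberg correction over all genes tested, with a threshold of 0.01. Intervals of fold changes are at 95% and follow from the edgeR standard errors. Ratios of counts, with 0.5 added to each, were compared as log2 values by exact permutation tests. A count of 3 per library was the floor for genes at 0, and ratios to 2 or 3 untreated counts carry exact counting intervals at 95%. Coordinates and exon lengths are from GENCODE vM21 on the same build.

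All 10 members are named. From each pathway list, up to 3 genes with the largest change called between RVO and untreated eyes, without overlap and with over 3 counts in some sample of each group, and up to 2 genes with the most counts and no call are named. For each member, the 2 genes most alike are named. The result of 1 gene that this rule names is not reported here. The members and lists were chosen with earlier results of these data known. The procedure was tested on simulated counts. Alternatives were other scalings, filters and thresholds, DESeq2 1.42.0, 1 fit of the 9 samples, a block for replicate number, and leaving out each sample. Other denominators for the endothelial ratios were added after seeing the data.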

Additional observations from a re-analysis of the deposited data

How the results depend on the processing

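Against untreated eyes, the number of members called was 9 under the main settings and stayed within 1.5 times that number under every alternative run. Between RVO and control eyes the 5 members called (3.34% of all genes) became 8 at an adjusted p under 0.05 (34.6%). They were also 8 without a filter on low counts (11.1%) and 8 with DESeq2's Wald test (23.7%). With 1 pool left out they ranged from 0 to 8. The 4 pathway genes called in this comparison became 22 at 0.05, 15 without the filter and 14 with DESeq2, beside the same shares of all genes. They were 14 in the fit of all 9 samples (22.5% of all genes) and 0 to 21 with 1 pool left out. The 21 pathway genes and 8 members were reached without RVO replicate 2, where 36.4% of all genes were called. With the replicate number as a block, 0 members and 0 pathway genes were called (edgeR, 0 of all genes), with 8 members at an unadjusted p under 0.05 (42.8% of all genes) and 7 at an adjusted p under 0.05 (24.9%). Deviations of RVO and control pools of the same number had correlations of -0.17, -0.17 and 0.10. Of the RVO pools, 0 of 3 correlated best with the control pool of its number. Whether equally numbered pools hold fellow eyes of the same mice is not given in the sources, and these correlations cannot exclude it. The pools were not treated as pairs in the main fit. The cause of the changes in the numbers called was not tested. The log2 fold change of Tfpi between control and untreated eyes, not called in either case, turned from -0.14 to 0.029 when libraries were scaled by size only. The log2 ratio of Tfpi to the endothelial markers between RVO and untreated eyes turned from 0.077 to -0.33 without Kdr and Flt1 in the sum, -0.32 relative to Pecam1 and -1.20 relative to Cdh5, alternatives chosen after seeing the data. Untreated libraries were the smallest, which limits Procr, Pf4, Ppbp and F13a1.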
